A study of Mus musculus with 3 samples.

Results

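Inflammasome, tumour necrosis factor and itaconate genes were followed in nuclei of the mouse abdominal aorta. The 10 members are Il1b, Il1a, Tnf, Cd14, Nlrp3, Acod1, Ptgs2, Nos2, Nfkbia and Tnfaip3, taken by gene symbol from the 33696 gene features counted in each library, and all 10 were found. The animals were ApoE-/- mice of the C57Bl/6 strain, and every group, the room air controls included, lacked apolipoprotein E and ate a high fat diet during 20 weeks of exposure. The 3 groups were room air, cigarette smoke without an abdominal aortic aneurysm (AAA), and cigarette smoke with an AAA. They are called the room air, smoke and aneurysm libraries, because each group is 1 library of single-nucleus RNA. How many aortae a library pools, and the sex of the mice, are not stated in the labels.

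The members belong to a response that myeloid cells run when they meet bacterial products, dying cells or cytokines. Cd14 is a surface co-receptor that hands lipopolysaccharide to Toll-like receptor 4. Signalling from that receptor releases the transcription factor NF-kappaB, which in turn raises transcription of cytokines, enzymes and its own inhibitors. Il1b and Il1a encode the interleukin 1 cytokines and Tnf encodes tumour necrosis factor. Nlrp3 encodes the sensor of an inflammasome, the protein complex that activates the protease cutting interleukin 1 beta to its active form. Acod1 encodes the mitochondrial enzyme that makes itaconate, Ptgs2 encodes cyclooxygenase 2, the inducible enzyme of prostaglandin synthesis, and Nos2 encodes inducible nitric oxide synthase. Nfkbia (I-kappaB alpha, which holds NF-kappaB in the cytoplasm) and Tnfaip3 (A20, a ubiquitin-editing enzyme) end the response. By the GENCODE M21 annotation of GRCm38, Il1b lies at chr2:129364570-129371139 and Il1a beside it at chr2:129299610-129309972, both on the minus strand. Acod1 lies at chr14:103046977-103056573 and Nlrp3 at chr11:59541568-59566956, both on the plus strand.

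RefSeq (build GRCm38.p6) gave a promoter for 8 of the 10 members, in 10 windows of 250 bases before a transcription start. Nos2 and Cd14 were not among them. The windows of 4 genes are printed 5′ to 3′ on the strand of the gene: both feedback inhibitors, and Il1b and Acod1, which carry the main results on levels. Capitals mark matches to an NF-kappaB motif, on either strand. Its stricter spelling is GGG, any 2 bases and TTTCC, and its looser one is GGG, any 3 bases, T, any base and CC, so every match to the stricter one is also a match to the looser one.

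Nfkbia, chr12:55492648-55492897, minus strand: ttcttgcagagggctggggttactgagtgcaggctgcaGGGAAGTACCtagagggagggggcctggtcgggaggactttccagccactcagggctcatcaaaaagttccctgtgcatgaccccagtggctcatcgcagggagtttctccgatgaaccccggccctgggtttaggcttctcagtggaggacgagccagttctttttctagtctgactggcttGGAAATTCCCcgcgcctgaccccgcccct
Tnfaip3, chr10:19015411-19015660, minus strand: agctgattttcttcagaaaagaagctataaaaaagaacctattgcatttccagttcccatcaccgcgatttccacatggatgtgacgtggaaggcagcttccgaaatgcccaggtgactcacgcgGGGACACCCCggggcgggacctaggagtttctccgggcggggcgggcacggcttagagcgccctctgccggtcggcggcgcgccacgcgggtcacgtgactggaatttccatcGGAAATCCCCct
Il1b, chr2:129371140-129371389, minus strand: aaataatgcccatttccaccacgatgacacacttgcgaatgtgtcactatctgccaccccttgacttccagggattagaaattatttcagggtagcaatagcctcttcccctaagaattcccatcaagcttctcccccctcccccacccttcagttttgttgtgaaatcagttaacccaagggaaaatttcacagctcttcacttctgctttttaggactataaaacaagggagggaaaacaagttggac
Acod1, chr14:103046762-103047011, plus strand: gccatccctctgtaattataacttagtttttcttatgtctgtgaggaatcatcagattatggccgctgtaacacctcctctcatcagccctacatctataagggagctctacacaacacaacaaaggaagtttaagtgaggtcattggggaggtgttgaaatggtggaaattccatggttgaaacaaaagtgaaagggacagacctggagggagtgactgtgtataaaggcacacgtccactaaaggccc

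The stricter spelling was in 2 of the 10 windows, against 1.41% of all 32851 RefSeq mouse promoter windows of the same length. In Nfkbia it lay 29 to 20 bases before the start, and in the printed Tnfaip3 window it lay 12 to 3 bases before it. That Tnfaip3 start is a RefSeq one inside the GENCODE gene, which spans chr10:19000910-19015657 on the minus strand. The looser spelling was in 4 of the 10 windows (Nfkbia, both Tnfaip3 windows and 1 of the 2 Nlrp3 windows), against 14.9% of all windows. A further 3 motifs were searched on both strands. TGANTCA (AP-1) was in 2 windows, those of Il1a and Tnfaip3, against 6.75% of all windows; TTNNGNAA (C/EBP) was in 8, against 36.8%; TGACGTCA (CRE) was in 0, against 1.55%. The Il1b and Acod1 windows held neither NF-kappaB spelling, which says only that these letters are not in these windows.

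The room air, smoke and aneurysm libraries held 73891039, 117247048 and 15634797 UMIs (unique molecular identifiers, each 1 captured RNA molecule), and 11022, 14001 and 5707 nuclei were kept, at medians of 4058.5, 6225 and 1443 UMIs. Any pair of libraries shared 26 to 46 cell barcodes. Clustering, made without the 10 members, gave 27 clusters, and 7 of them were called macrophage-like from marker genes; these held 5783, 6741 and 1270 nuclei, or 52.5%, 48.1% and 22.3% of the libraries. Wall cells were found as well: smooth muscle-like nuclei numbered 446, 542 and 143, endothelial-like nuclei 1823, 1948 and 654, and adipocyte-like nuclei 36, 210 and 1249. Apoe, the deleted gene, was at 3.63, 5.44 and 5.02 CPM over all kept nuclei, and its UMIs can come from outside the deleted part. Macrophage-like nuclei had median mitochondrial shares of 0.509%, 0.176% and 0.652%. Class sizes can be set by the anti-nucleus bead purification and by the depth gap. Levels are UMIs of a gene per 1000000 UMIs of the class (CPM) with 95% exact Poisson intervals in parentheses. Ratios carry exact conditional binomial intervals, and shares of nuclei carry exact Clopper-Pearson intervals. All of these cover counting error only, and there is no replicate check of any difference between libraries. A member was counted as higher or lower when the CPM ratio was at least 1.5-fold and its interval left out 1, for genes with at least 20 UMIs over both libraries. Alternatives changed the clustering (its Leiden resolution, number of principal components or genes), the filters, the depth or the clusters kept in the class. The 3 comparisons share libraries, so their ratios are not independent of each other. Less RNA per cell and fewer cells in that state cannot be told apart in a class sum.

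Macrophage-like nuclei did not fall into the same clusters in each library, and this stands beside every class value. Cluster 1 (leading genes Cd72, Arhgap22 and Xylt2, at a low UMI count) held 17.4% of the class in room air, 11.7% in smoke and 51.2% in the aneurysm library. Cluster 18 (F13a1, Cd163 and Ednrb, genes of resident tissue macrophages) held 1.57%, 2.83% and 26.4%. Cluster 3 (Adgre4, Gpr141 and Itgal, with the highest score for monocyte markers) held 14.0%, 13.2% and 3.07%, which was 39 nuclei in the aneurysm library and too few for a level. Clusters 2 (Zfp618, Fgf13, Fat3), 4 (Abcg3, Aoah, F7) and 5 (Mamdc2, Hapln3, Wfs1) together held most of the class in room air and smoke, and cluster 24 (Mki67) held dividing nuclei.

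**Figure D1:**
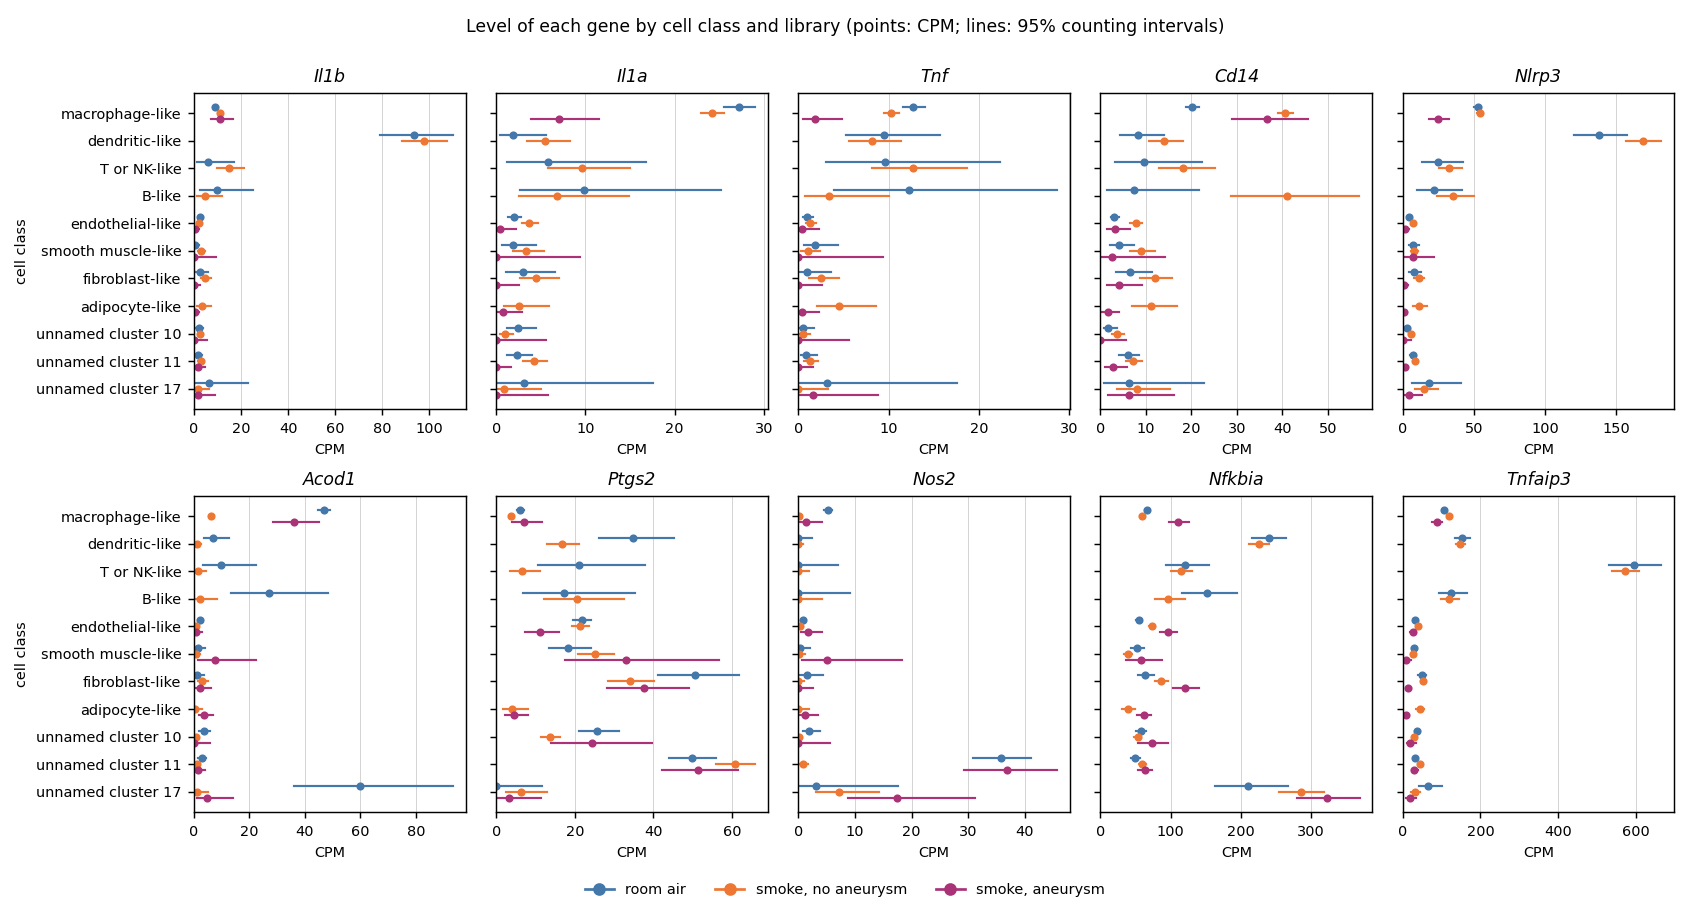
CPM (x axis) of the 10 members in cell classes and unnamed clusters with at least 50 nuclei in a library (y axis), with 95% exact Poisson intervals as lines and 1 colour per library. Il1b and Nlrp3 reach their highest level among named classes in dendritic-like nuclei, Il1a in macrophage-like nuclei, Tnfaip3 in T or NK-like nuclei, and Nos2 in unnamed cluster 11 of the room air and aneurysm libraries.

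In macrophage-like nuclei Il1b, the secreted interleukin 1 that needs an inflammasome for processing, was at 9.05 CPM (8.09 to 10.1; 320 UMIs) in room air, 10.9 CPM (10.1 to 11.8; 635 UMIs) in smoke and 11.2 CPM (7.19 to 16.7; 24 UMIs) with an aneurysm. No comparison passed 1.5-fold, and the direction of the aneurysm ratios depended on the alternative: to smoke they ran from 0.624 to 1.83 and to room air from 0.521 to 1.81. Within the class, Il1b was concentrated in cluster 3, at 68.9 CPM (59.5 to 79.3) in room air and 103 CPM (93.4 to 113) in smoke. Those nuclei held 60.0% of the Il1b UMIs of the class in room air and 69.6% in smoke, although they held 7.89% and 7.41% of all its UMIs. Cluster 5 was at the other end, at 1.34 CPM in room air and 1.05 CPM in smoke. In the aneurysm library 13 of the 24 UMIs were in the 39 nuclei of cluster 3, and 1 nucleus of cluster 1 held 9. Without cluster 18 the aneurysm to room air ratio was 1.69 and was counted.

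Dendritic-like nuclei had more Il1b than the macrophage-like class as a whole, at 93.6 CPM in room air and 97.6 CPM in smoke, with only 12 such nuclei in the aneurysm library. Among them cluster 20, with type 2 dendritic markers, stood at 108 CPM (87.9 to 132) and 155 CPM (139 to 173). Cluster 25, with type 1 markers, stood at 256 CPM (187 to 343) in 57 room air nuclei, of which 1 nucleus held 25 of the 45 UMIs, and at 48.3 CPM (32.6 to 68.9) in smoke. Cluster 0, with the migratory marker Ccr7, was lower, at 10.0 and 29.4 CPM. Smooth muscle-like nuclei, which should lack Il1b, had 0.379 and 2.89 CPM. Neutrophils are another source of Il1b, and 11 of their markers were summed in cluster 3. In room air 7 of the 11 had a UMI, at a summed 375 CPM of which 71.3% was Il1r2; S100a9, Retnlg, Mmp9 and Ly6g were at 0. In smoke 6 of the 11 had a UMI, at a summed 339 CPM of which 56.8% was Il1r2, and S100a8 was at 0 as well. The rest of each sum came from the other markers detected, which were Csf3r, Cxcr2, Mmp8, Trem1 and Hdc in room air and in smoke, and S100a8 in room air. Whether cluster 3 holds neutrophils was not tested.

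Il1a, the interleukin 1 that acts without inflammasome processing, was at 27.2 CPM (25.6 to 29.0; 963 UMIs) in room air, 24.2 CPM (23.0 to 25.5; 1406 UMIs) in smoke and 7.02 CPM (3.93 to 11.6; 15 UMIs) with an aneurysm. The aneurysm library was the low one, 3.45-fold lower than smoke (2.09 to 6.19) and 3.88-fold lower than room air (2.34 to 6.96). Il1a did not share the cluster pattern of its neighbour on chromosome 2: clusters 4 and 5 were the highest, at 33.4 and 35.1 CPM in room air and 30.5 and 34.3 CPM in smoke, while cluster 18 had 0 and 3 UMIs. Cluster 18 and cluster 1 (8.20 and 8.42 CPM in room air and smoke) are the clusters that make up most of the aneurysm class. Within clusters 4 and 5 the aneurysm values rested on 3 and 5 UMIs, at 17.6 CPM (3.62 to 51.3) and 18.1 CPM (5.88 to 42.2), and their intervals overlapped those of smoke. With 15 principal components the class ratio of aneurysm to smoke was 0.573 and was no longer counted. Dendritic-like nuclei had 1.90 and 5.49 CPM.

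Tnf was at 12.8 CPM (11.6 to 14.0; 451 UMIs) in room air, 10.3 CPM (9.48 to 11.1; 597 UMIs) in smoke and 1.87 CPM (0.510 to 4.79; 4 UMIs) with an aneurysm. Again the aneurysm library was low, 5.50-fold below smoke (2.14 to 20.2) and 6.82-fold below room air (2.64 to 25.1). Both stayed counted in all 16 alternatives that gave a call, although the ratio to smoke moved between 0.0870 and 0.356. Smoke and room air differed by less than 1.5-fold in the class, but not in every cluster. In cluster 2 Tnf was at 8.47 CPM in room air and 15.3 CPM in smoke, whereas in cluster 5 it was at 11.1 CPM in room air and 4.69 CPM in smoke. Tnf was not particular to the macrophage-like class. T or NK-like nuclei had 9.59 CPM (5 UMIs) in room air and 12.7 CPM (25 UMIs) in smoke, and dendritic-like nuclei had 9.49 and 8.11 CPM. Unnamed cluster 14 had 75.3 CPM (8 UMIs) in room air and 5.47 CPM (2 UMIs) in smoke. Smooth muscle-like nuclei had 1.90 and 1.03 CPM.

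Cd14 was at 20.2 CPM (18.7 to 21.7; 714 UMIs) in room air, 40.6 CPM (38.9 to 42.2; 2354 UMIs) in smoke and 36.5 CPM (28.8 to 45.5; 78 UMIs) with an aneurysm. Room air was the low library. Cd14 was the 1 member counted as higher in smoke than in room air, at 2.01-fold (1.85 to 2.19), where 7.28% of 17309 genes tested were counted as higher. The ratio was above 1 in all 7 macrophage-like clusters, from 1.37-fold to 2.53-fold, and 5 of them passed the count on their own. Clusters 2 and 3 had the most Cd14, at 42.7 and 46.3 CPM in room air and 80.2 and 66.5 CPM in smoke, and in the aneurysm library cluster 18 had the most, at 63.7 CPM (44.6 to 88.2). Other classes differed the same way: Cd14 was 2.56-fold higher in smoke in endothelial-like nuclei (3.04 and 7.77 CPM) and 2.13-fold higher in smooth muscle-like nuclei (4.17 and 8.89 CPM). In B-like nuclei it was 5.57-fold higher (1.76 to 28.3), at 7.37 CPM (3 UMIs) in room air and 41.1 CPM (36 UMIs) in smoke. That smoke value is near the macrophage-like one. In endothelial-like nuclei the aneurysm library, at 3.27 CPM (8 UMIs), was not high. The aneurysm library was 1.81-fold above room air (1.41 to 2.28) in the macrophage-like class. That difference kept its count in 11 of 17 alternatives, losing it without cluster 18 (1.33) or cluster 5 (1.31), and it turned to 0.945 with 15 principal components. Against smoke, 4 of 17 alternatives counted the aneurysm library as lower, for example without cluster 18 (0.66). The part of free RNA in these values was not tested.

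Nlrp3 was at 52.8 CPM (50.5 to 55.3; 1868 UMIs) in room air, 54.4 CPM (52.5 to 56.3; 3154 UMIs) in smoke and 24.8 CPM (18.6 to 32.4; 53 UMIs) with an aneurysm. Room air and smoke overlapped, and the aneurysm library was 2.19-fold below smoke (1.67 to 2.93) and 2.13-fold below room air (1.62 to 2.86). Both differences were counted in all 17 alternatives that gave a call; with nuclei thinned to 1000 UMIs the ratios were 0.22 and 0.274. The 5 clusters with at least 50 nuclei in every library all had less Nlrp3 in the aneurysm library than in either other library. At fixed depth 5.41% (4.82 to 6.05), 6.38% (5.79 to 7.01) and 1.55% (0.802 to 2.69) of macrophage-like nuclei had an Nlrp3 UMI. In smooth muscle-like nuclei the shares were 1.01%, 1.76% and 0.901%, and the last lies within the aneurysm macrophage-like interval. In CPM the aneurysm macrophage-like class, at 24.8, stood above the other aneurysm classes read here. Smooth muscle-like nuclei were at 7.64 CPM (3 UMIs), endothelial-like nuclei at 1.63 CPM (4 UMIs) and fibroblast-like nuclei at 0.696 CPM (1 UMI). Without thinning the macrophage-like shares were 18.6%, 23.0% and 3.39%. Like Il1b, Nlrp3 was highest in cluster 3, at 194 CPM (178 to 211) and 163 CPM (151 to 175), and in dendritic-like nuclei, at 138 CPM (120 to 158) and 169 CPM (157 to 182). Cluster 5 was low in both, at 17.1 and 14.6 CPM.

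**Figure D2:**
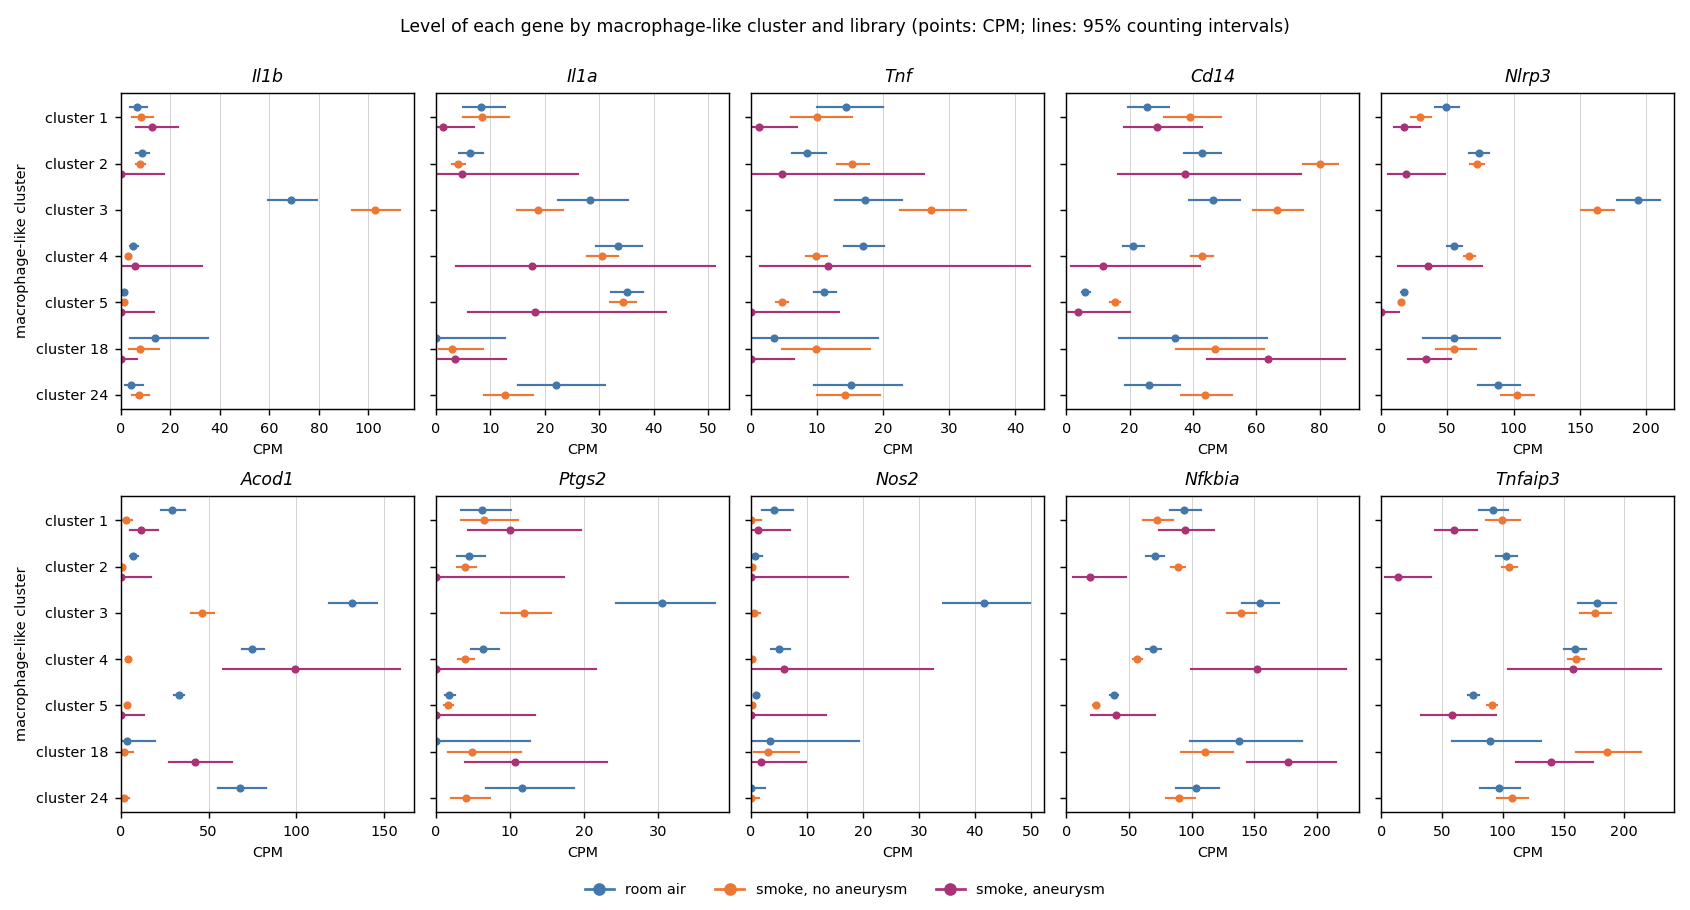
CPM (x axis) of the 10 members in the 7 macrophage-like clusters (y axis), with 95% exact Poisson intervals as lines and 1 colour per library; clusters under 50 nuclei in a library are left out. Il1b stands out in cluster 3 and Il1a in clusters 3, 4 and 5. The Acod1 point is lower in smoke than in room air in all 7 clusters, with cluster 18 resting on 1 UMI in room air and 2 UMIs in smoke.

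Acod1 differed most widely between libraries among the members with at least 20 UMIs in each. It was at 46.8 CPM (44.6 to 49.1; 1655 UMIs) in room air, 6.00 CPM (5.38 to 6.66; 348 UMIs) in smoke and 36.0 CPM (28.4 to 45.0; 77 UMIs) with an aneurysm. Smoke without an aneurysm was the low library, 7.81-fold below room air (6.95 to 8.79), where 3.48% of genes tested were counted as lower. The aneurysm library was 6.01-fold above smoke (4.63 to 7.71), where 14.7% of 16327 genes tested were counted as higher, and 1.30-fold below room air (1.03 to 1.66). Smoke was counted as lower than room air in all 18 alternatives that gave a call, by 4.66-fold (nuclei thinned to 1000 UMIs) to 15.2-fold (Leiden resolution 0.5). Aneurysm was counted as higher than smoke in all 17, and its ratio was 12.1 when the clusters were given equal weight. Against room air it was counted as lower in 3 of 17, among them without cluster 3 (0.616) and without the nucleus with most UMIs (0.573).

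The Acod1 ratio of smoke to room air was below 1 in all 7 macrophage-like clusters, by 1.76-fold to 36.4-fold, and 6 of them passed the count. The 1.76-fold value, in cluster 18, rests on 1 UMI in room air and 2 UMIs in smoke, so its direction is not settled. Cluster 4, which held the most Acod1 UMIs in room air, was at 75.0 CPM (68.9 to 81.5) in room air and at 3.98 CPM (3.02 to 5.14) in smoke. Cluster 3 had the most in smoke, at 46.0 CPM (39.8 to 52.9) against 132 CPM (119 to 146) in room air. Cluster 24, the dividing nuclei, had 68.0 CPM in room air and 1.87 CPM in smoke. The remaining clusters were low in smoke, between 0.566 and 3.20 CPM.

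Macrophage-like nuclei of the aneurysm library were not uniform. Cluster 18 had 42.5 CPM of Acod1 (27.2 to 63.2; 24 UMIs in 16 nuclei) there, against 1 UMI in room air and 2 UMIs in smoke, a ratio to smoke of 21.6 (5.37 to 189). Cluster 4 had 99.5 CPM (58.0 to 159; 17 UMIs in 10 nuclei) and cluster 1 had 11.2 CPM (9 UMIs). Clusters 2 and 5 had no Acod1 UMI in the aneurysm library, in 52 and 92 nuclei. A further 27 of the 77 UMIs were in the 39 nuclei of cluster 3, and 1 nucleus held 22 of the 77.

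Acod1 UMIs came from few nuclei. Of 385 room air macrophage-like nuclei with an Acod1 UMI, the top 35 held at least as many UMIs as all the others together, and the highest held 68. The share of nuclei is therefore given as well, at a fixed depth of 1000 UMIs per nucleus. It was 2.49% (2.09 to 2.94) in room air, 0.583% (0.411 to 0.803) in smoke and 2.71% (1.68 to 4.11) in the aneurysm library, so that smoke alone lay apart. Without thinning the shares were 6.66%, 2.25% and 3.07%, at median depths of 4147, 6536 and 1180 UMIs. In smooth muscle-like nuclei, at median depths of 3710, 6510.5 and 1710 UMIs, thinning left 0 of 396 room air nuclei, 0 of 510 smoke nuclei and 1 of 111 aneurysm nuclei with an Acod1 UMI, where 0 allows shares of up to 0.758% and 0.588% by a floor of 3 counts. The exact intervals of these zeros reach 0.927% and 0.721%, above the smoke macrophage-like share, so at this depth that share could not be told apart from background. Outside the macrophage-like class Acod1 was also counted as lower in smoke in unnamed cluster 17 (59.8 and 0.901 CPM, on 19 UMIs and 1 UMI). The same held in unnamed cluster 11 (2.71 and 0.930 CPM, on 15 and 9 UMIs) and in endothelial-like nuclei (2.2 and 0.788 CPM). B-like nuclei had 11 and 2 UMIs and fibroblast-like nuclei 2 and 12 UMIs, too few to count either way.

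**Figure D3:**
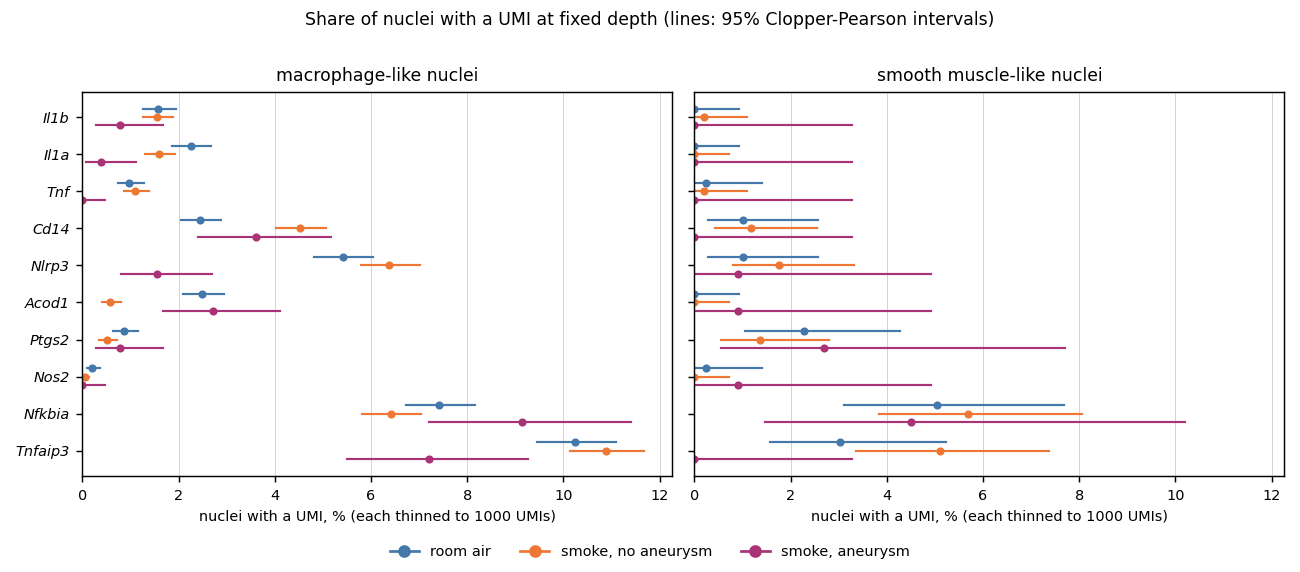
Share of nuclei with at least 1 UMI of each member (x axis, %), each nucleus thinned to 1000 UMIs, in macrophage-like nuclei (left) and smooth muscle-like nuclei (right), with 95% Clopper-Pearson intervals as lines and 1 colour per library. Acod1 is at 2.49%, 0.583% and 2.71% of macrophage-like nuclei in room air, smoke and aneurysm, and Ptgs2 lies higher in smooth muscle-like than in macrophage-like nuclei.

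Ptgs2 was low in the macrophage-like class, at 6.11 CPM (5.32 to 6.98; 216 UMIs) in room air, 3.72 CPM (3.24 to 4.25; 216 UMIs) in smoke and 7.02 CPM (3.93 to 11.6; 15 UMIs) with an aneurysm. Smoke was the low library, 1.64-fold below room air (1.35 to 1.99), and the aneurysm library was 1.89-fold above smoke (1.04 to 3.18). Without cluster 3, which was at 30.5 CPM in room air and 11.9 CPM in smoke, the smoke to room air ratio was 0.76 and was no longer counted. The aneurysm to smoke ratio kept its count in 8 of 17 alternatives and turned to 0.491 with 15 principal components. With equal weight to clusters both ratios turned, to 1.11 for smoke to room air and 0.986 for aneurysm to smoke. Smooth muscle-like nuclei had more Ptgs2 than the macrophage-like class, at 18.2, 25.2 and 33.1 CPM, so the share of macrophage-like nuclei with a UMI is not read as expression. The highest levels were in unnamed cluster 11 (Grem1, Ano1 and Grin2a), at 49.8, 60.8 and 51.2 CPM, and in fibroblast-like nuclei, at 50.7, 34.0 and 37.6 CPM.

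Nos2 was at 5.18 CPM (4.45 to 5.98; 183 UMIs) in room air, 0.207 CPM (0.107 to 0.361; 12 UMIs) in smoke and 1.4 CPM (0.289 to 4.10; 3 UMIs) with an aneurysm. Room air was the high library, 25.0-fold above smoke in CPM (14.0 to 49.3). That value came from very few nuclei: 29 room air nuclei had a UMI, 3 of them held at least as many UMIs as all the others together, and 1 held 55. In smoke 10 nuclei had a UMI. Thinned shares were 0.203% in room air and 0.0473% in smoke, against 1 of 396 and 0 of 510 smooth muscle-like nuclei, so they are not apart from background. At Leiden resolution 2 the smoke to room air ratio was 0.65 and was no longer counted. The ratio of aneurysm to room air was 3.69-fold lower (1.24 to 18.1) on 3 UMIs, and it kept its count in 10 of 16 alternatives and turned to 1.84 at resolution 2.

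Cluster 3 held 116 of the room air UMIs, in 9 nuclei. Outside the macrophage-like class Nos2 was highest in unnamed cluster 11 in the room air and aneurysm libraries, whereas in smoke unnamed cluster 17 had more (7.21 CPM, 8 UMIs). In cluster 11 it was at 35.7 CPM (30.9 to 41.1; 198 UMIs in 29 nuclei) in room air, 0.827 CPM (0.357 to 1.63; 8 UMIs in 7 nuclei) in smoke and 36.9 CPM (29.3 to 45.7; 82 UMIs in 28 nuclei) in the aneurysm library. As with Acod1 in macrophage-like nuclei, smoke without an aneurysm was the low library, and the aneurysm library was 44.6-fold above it (21.6 to 107). Single nuclei held 74 of the 198 and 32 of the 82 UMIs. The thinned shares were 1.03% (0.416 to 2.12), 0.123% (0.00312 to 0.684) and 2.02% (1.13 to 3.30), and those of smoke and the aneurysm library did not overlap.

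Nfkbia was at 65.9 CPM (63.3 to 68.7; 2330 UMIs) in room air, 58.9 CPM (56.9 to 60.9; 3417 UMIs) in smoke and 111 CPM (97.2 to 126; 237 UMIs) with an aneurysm. The aneurysm library was the high one, 1.88-fold above smoke (1.64 to 2.15) and 1.68-fold above room air (1.47 to 1.92). The clusters did not all do so. Against smoke, cluster 4 was 2.68-fold higher in the aneurysm library (56.9 and 152 CPM) and cluster 2 was 4.74-fold lower (89.1 and 18.8 CPM, the latter 4 UMIs). The class ratio to smoke kept its count in 13 of 17 alternatives, and without cluster 5 it was 1.49. The ratio to room air kept it in 11 of 17, and was 1.37 without cluster 5 and 1.33 without cluster 18. Cluster 18, a larger part of the class in the aneurysm library, had 138, 111 and 177 CPM. The same order of smoke and aneurysm was seen in endothelial-like nuclei (54.4, 73.7 and 96.8 CPM) and fibroblast-like nuclei (63.9, 86.5 and 121 CPM). Nfkbia was highest in unnamed cluster 17 (Ccdc85a and Adarb2), at 211, 286 and 323 CPM, and in dendritic-like nuclei, at 240 and 226 CPM.

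Tnfaip3 was at 107.5 CPM (104 to 111; 3800 UMIs) in room air, 120.0 CPM (117 to 123; 6964 UMIs) in smoke and 87.5 CPM (75.4 to 100.97; 187 UMIs) with an aneurysm. No comparison reached 1.5-fold, but 6 of 17 alternatives counted the aneurysm library as lower than smoke, for example without cluster 18 (0.578). The 2 inhibitors, whose printed promoter windows hold the stricter NF-kappaB motif, did not stand in the same order over the libraries. The aneurysm library was the highest for Nfkbia and the lowest for Tnfaip3. T or NK-like nuclei had the most Tnfaip3, at 595 CPM (530 to 665) and 572 CPM (539 to 606), with a UMI in 40.9% and 39.5% of nuclei at fixed depth (3.03% and 5.10% in smooth muscle-like nuclei). Fibroblast-like nuclei had 49.2, 53.1 and 14.6 CPM, and there too the aneurysm library was the lowest.

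Over the 10 members, smoke against room air gave 1 higher (Cd14) and 3 lower (Acod1, Ptgs2 and Nos2), beside 7.28% and 3.48% of 17309 genes tested. The 3 lower ones do not stand on equal ground. Only 29 room air nuclei had a Nos2 UMI, and the Ptgs2 ratio turned to 1.11 with equal weight to clusters. Acod1 was counted in all 18 alternatives that gave a call, and Ptgs2 and Nos2 each in 17 of 18. Aneurysm against smoke gave 3 higher (Acod1, Ptgs2 and Nfkbia) and 3 lower (Il1a, Tnf and Nlrp3) of 9 with enough UMIs, where 14.7% and 8.01% of 16327 genes tested were counted as higher and lower. Aneurysm against room air gave 2 higher (Cd14 and Nfkbia) and 4 lower (Il1a, Tnf, Nlrp3 and Nos2), where 14.7% and 6.56% of 15045 genes tested were counted as higher and lower. The median log2 ratio of the members with enough UMIs was -0.17, -0.15 and -0.34 in these comparisons, against 0.02, 0.01 and 0.03 over all genes tested. Il1a, Tnf and Nlrp3 were counted as lower in the aneurysm library against both other libraries, and Il1b, the third cytokine, was not. This was not particular to macrophage-like nuclei. Against smoke, Nlrp3 was also counted as lower in endothelial-like (4.66-fold, 1.78 to 17.3), fibroblast-like (16.4-fold, 2.80 to 661) and adipocyte-like nuclei (14.4-fold, 3.55 to 126). These aneurysm values rest on 4, 1 and 2 UMIs. In smooth muscle-like nuclei, on 3 UMIs, Nlrp3 was not counted (1.06-fold lower, 0.335 to 5.34), and that interval is too wide to set them apart. In endothelial-like nuclei Il1a was counted as lower (9.01-fold, 1 UMI) and Tnf was not (3.22-fold, 1 UMI). Whether the library as a whole differs in this way was not tested.

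**Figure D4:**
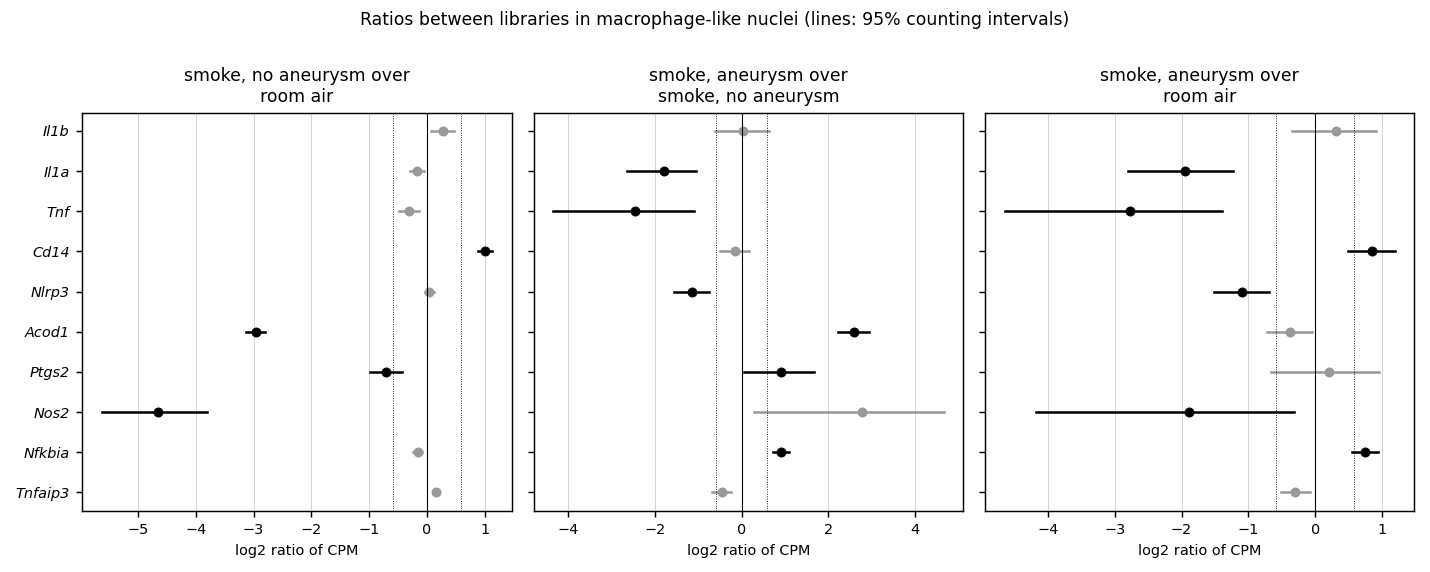
Log2 ratio of CPM between libraries (x axis) of the 10 members (y axis) in macrophage-like nuclei, 1 panel per comparison, with 95% exact intervals as lines; dotted lines mark 1.5-fold, and black points are those counted as higher or lower. Acod1 lies far left for smoke over room air and far right for aneurysm over smoke.

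Members were also found together in nuclei. At 1000 UMIs per nucleus, 6.14% (3.68 to 9.54) of room air macrophage-like nuclei with an Nlrp3 UMI had an Acod1 UMI, against 2.28% (1.89 to 2.73) of those without. In smoke, 35.1% (20.2 to 52.5) of the 37 nuclei with an Acod1 UMI had a Tnfaip3 UMI, against 10.8% (9.99 to 11.5). Il1b and Ptgs2 met in room air: 5.88% (1.94 to 13.2) of nuclei with Il1b had Ptgs2, against 0.794% without. The intervals were apart for 16 of 81 ordered pairs in room air and 16 of 81 in smoke, and for 0 of 36 in the aneurysm library. Without cluster 3, 4 of 81 and 7 of 63 were apart. The same count over other gene pairs is not given beside these, so they are not read as a trait of the members.

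Over 63 sums (26 clusters by library, each with at least 50 nuclei), the genes most like each member were described by Pearson's r of log CPM among 8764 genes. The points share library and depth. Il1b was most like Il1r2, the decoy receptor of interleukin 1 (r = 0.840), and then Mx1 and Fem1c. Il1a was most like Gpnmb, a gene of lipid-laden macrophages (0.858), Cd14 was most like C5ar1 (0.872), Tnf was most like Ctss (0.813) and Tnfaip3 was most like Il21r (0.854). Acod1, Ptgs2, Nfkbia and Nos2 had no gene as close: the best were Wtap (0.671), Ddr1 (0.654), Uba7 (0.709) and Slc25a37 (0.466). Between members, Nlrp3 went most closely with Cd14 (0.789), Tnf (0.785) and Il1b (0.768).

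Other genes of these pathways were read in macrophage-like nuclei from 9 lists. Their counts are read against the shares of all genes tested, which were 7.28% higher and 3.48% lower for smoke against room air, and 14.7% higher and 8.01% lower for aneurysm against smoke. Of the inflammasome and interleukin 1 list, 1 of 20 was higher and 0 lower in smoke than in room air, and 7 were higher and 5 lower in the aneurysm library than in smoke, with a median log2 ratio of 0.36 against 0.01 over all genes tested. Irak3, an inhibitor of interleukin 1 receptor signalling, was at 56.2, 55.6 and 185 CPM, and it was highest in cluster 18 of the aneurysm library, at 425 CPM. Txnip, a binding partner of NLRP3, was at 18.1, 20.8 and 64.1 CPM. Il1r2 was at 29.3, 22.7 and 2.34 CPM, so that the decoy receptor was 9.69-fold lower in the aneurysm library than in smoke (4.14 to 29.9); in room air and smoke it was led by cluster 3, at 267 and 193 CPM. Il18bp, the interleukin 18 binding protein, was at 12.7, 14.1 and 3.74 CPM.

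The itaconate and citrate cycle list had 0 of 19 measured genes higher or lower in smoke than in room air, and 3 higher and 0 lower in the aneurysm library than in smoke, near the 14.7% of all genes. Slc13a3, a transporter that can carry itaconate, was at 1.13, 1.55 and 37.4 CPM, 24.1-fold higher in the aneurysm library than in smoke (17.6 to 33.0). It was high in cluster 1 (2.05, 0.495 and 42.3 CPM) and in cluster 18 (6.90, 24.6 and 65.5 CPM). The nitric oxide and arginine list had 4 of 14 lower in smoke than in room air, and 4 higher and 2 lower in the aneurysm library than in smoke, beside 3.48%, 14.7% and 8.01% of all genes. Slc7a2, an arginine transporter, was at 63.2, 34.5 and 102 CPM, and Arg2, a mitochondrial arginase, was at 22.0 CPM in room air and 12.4 CPM in smoke. Both were lower in smoke, by 1.83-fold and 1.78-fold, and Slc7a2 was 2.95-fold higher in the aneurysm library than in smoke (2.56 to 3.40). Odc1, which makes putrescine from ornithine, was at 20.1 CPM in smoke and 7.02 CPM in the aneurysm library.

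The prostaglandin list had 2 of 18 measured genes higher and 1 lower in smoke than in room air, and 6 higher and 2 lower in the aneurysm library than in smoke. Of all genes 7.28% and 3.48% were counted in the first comparison, near this list, and 14.7% and 8.01% in the second. Alox5 and Ltc4s, which act in leukotriene rather than prostaglandin synthesis, led it in the aneurysm library. Alox5 was at 7.64, 6.51 and 81.9 CPM and Ltc4s at 1.56, 2.03 and 17.8 CPM. Alox5 was highest in cluster 18, at 135, 92.3 and 198 CPM, and in cluster 1 it was at 10.2, 5.45 and 38.5 CPM. Ptger1, a prostaglandin E2 receptor, was at 1.05 CPM in room air and 2.46 CPM in smoke.

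The TNF list had 1 of 20 higher in smoke than in room air and 3 higher in the aneurysm library than in smoke, with 0 lower in both; Birc3, an inhibitor of cell death, was at 92.3 and 162 CPM in the latter. The NF-kappaB list had 0 of 20 either way in smoke, and 3 higher and 1 lower in the aneurysm library than in smoke, the lower being Rel (224 and 105 CPM), which encodes the c-Rel subunit. The Toll-like receptor list had 0 of 20 either way, then 1 higher (Ticam1, a receptor adaptor, at 10.3 and 22.0 CPM) and 2 lower, of which Cd180 was at 520.3 and 287 CPM. Of all genes 7.28% and 14.7% were counted as higher and 3.48% and 8.01% as lower in these comparisons, so the counts of the 3 lists lie near or below these shares.

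Of the other cytokines induced by NF-kappaB, 4 of 16 measured were higher and 2 lower in smoke than in room air, where 7.28% and 3.48% of all genes were. Cxcl2, a neutrophil chemokine, was at 47.6, 96.0 and 31.8 CPM, Il10 was at 1.5 CPM in room air and 3.57 CPM in smoke, and Cxcl9 was at 2.60 and 0.603 CPM. In the aneurysm library against smoke 3 were higher and 4 lower, where 14.7% and 8.01% of all genes were. Ccl7, a monocyte chemokine, was at 12.6 CPM in smoke and 31.8 CPM in the aneurysm library, and Cxcl10 was at 3.72 CPM (216 UMIs) in smoke with 0 UMIs in the aneurysm library. Immediate early and heat shock genes, which also respond to handling of tissue, had 6 of 13 higher and 1 lower in smoke than in room air, among them Fos (132 and 254 CPM) as a higher one and Hspa1b (3.56 CPM in room air and 0.534 CPM in smoke) as the lower one; Dusp1, a phosphatase gene, had 78.1 and 134 CPM. Against smoke the aneurysm library had 3 higher and 2 lower, with more Egr1 (26.8 CPM in smoke and 86.1 CPM with an aneurysm) and Jund (145 and 282 CPM) and less Fosb (158 and 73.0 CPM) and Atf3 (488 and 209.6 CPM). Against room air the aneurysm library had 7 of 13 higher and 3 lower, where 14.7% and 6.56% of all genes were, with a median log2 ratio of 0.68 against 0.03 over all genes tested. The part of this response in the members' values was not tested.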

How the data were processed

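Nuclei from frozen abdominal aortae were counted with droplet single-nucleus RNA sequencing, 1 library for each of 3 groups. The deposited values are UMI counts per gene and nucleus that the authors made; STAR, mm10 and Cell Ranger 2.2.0 are named in the submitters' processing notes, but cellranger 8.0.1 in the file headers, and which was used is not settled here. The members, gene lists and markers were chosen with earlier results of these data known.

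Of 35396 barcodes, 30730 had 500 UMIs or more, 300 genes or more and mitochondrial UMIs below 5%, and were kept. The 3 libraries were clustered together in scanpy 1.11.5 (Python 3.11.15) on 2000 variable genes, from which the members were removed (5 had been among them), with 30 principal components, 20 neighbours and Leiden resolution 1. Clusters were named from marker genes. Scrublet marked 357, 497 and 1 barcodes; it did not work in the aneurysm library, and doublets were kept. Raw counts were summed by library and class. Pathway genes were named by a rule: up to 2 per list, direction and comparison, with the largest interval bound, at least 30 UMIs. Intervals came from scipy 1.17.1 and numpy 2.4.6, and the ratio intervals were run on simulated sums. Those sums were drawn as independent counts, which is what the intervals assume. The simulation therefore cannot show how the intervals do where few nuclei hold most UMIs of a gene. No test between groups was possible, since each has 1 library. The gene most like Nlrp3 is not reported here.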

Additional observations from a re-analysis of the deposited data

Results flagged for a closer look

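Among the 7 macrophage-like clusters, and among the cell classes and unnamed clusters, a member was counted in opposite directions under the same comparison in 5 cases. The difference between the 2 ratios was not tested in any of them. Tnf in smoke relative to room air had a ratio of 1.80 in cluster 2 and 0.422 in cluster 5. Acod1 in the aneurysm library relative to room air had a ratio of 12.3 in cluster 18, which rests on 1 UMI in room air, and 0 in cluster 5, where 92 aneurysm nuclei had no UMI. Nfkbia in the aneurysm library had a ratio to smoke of 2.68 in cluster 4 and 0.211 in cluster 2, and a ratio to room air of 2.201 in cluster 4 and 0.266 in cluster 2; both cluster 2 values rest on 4 UMIs in the aneurysm library. Ptgs2 in the aneurysm library relative to smoke had a ratio of 1.89 in macrophage-like nuclei and 0.514 in endothelial-like nuclei. Clusters of the other classes were not searched this way; among those of the dendritic-like class, the Il1b ratio of smoke to room air was 2.94 in cluster 0 and 0.188 in cluster 25.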

How the results depend on the processing

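Members counted as higher in the aneurysm library than in smoke went from 3 to 1 with the members among the variable genes, at Leiden resolution 0.5, with 15 principal components and without cluster 5; those counted as lower went from 3 to 5 in the first 2 of these and without cluster 18. Members counted as higher than room air went from 2 to 0 with the members among the variable genes, at resolution 0.5, with 15 principal components, thinned to 1000 UMIs and without cluster 5, and to 1 without cluster 18, where both were lost and Il1b (1.69) was counted instead. With 15 principal components 5 members, not 2, were highest in macrophage-like nuclei among named classes of the smoke library. These ratios turned: Nos2, aneurysm to room air, 1.84 at resolution 2; Ptgs2, aneurysm to smoke, 0.491 with 15 principal components and 0.986 with equal weight to clusters; Ptgs2, smoke to room air, 1.11 with equal weight; and Cd14, aneurysm to room air, 0.945 with 15 principal components. The median log2 ratio of the other cytokines, aneurysm to smoke, was -0.33, and 0.0499 with genes of 1 UMI or more. The share of nuclei with an Acod1 UMI was 4.32%, 1.01% and 4.30% at 2000 UMIs, and 6.66% and 2.25% in room air and smoke without thinning; smoke stayed the lowest. The shares of all genes counted under these alternatives are not given beside the member counts, and the cause of these changes was not tested. Scaling by the median of ratios, a minimum of 1000 UMIs, no mitochondrial limit and leaving out the highest Scrublet scores moved none of the 30 member ratios beyond its counting interval. Other settings moved many. Thinning to 1000 UMIs moved 15 and left 11 the same, and the members among the variable genes moved 12 and left 18. Equal weight to clusters moved 16, turned 2 and left 12, and 15 principal components moved 13, turned 2 and left 15. Leaving out clusters and equal weight were chosen after seeing the data. Clustered one by one, the aneurysm library had no macrophage-like class, so its comparisons have no value there. No unnamed cluster met the condition for joining the class, so that alternative gave no value. No paired analysis was possible because each group is 1 library. Depth limits the aneurysm library most: 3 to 24 UMIs stand behind its class values of Nos2, Tnf, Il1a, Ptgs2 and Il1b.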
